A study of Homo sapiens with 3 samples.

Results

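The MYC and MAX network was examined in H9, an established human embryonic stem cell line. Its 10 members are the MYC genes MYC, MYCN and MYCL, their common partner MAX, and MXD1, MXI1, MXD3, MXD4, MNT and MGA, whose proteins compete for MAX. They were taken by gene symbol, and all 10 were found among the 58051 genes in the count files, of which 19629 are protein-coding. The series has 1 group of 3 replicates of wild-type, untreated H9 cells grown on Vitronectin-XF in Essential 8 Flex medium, whose total RNA was freed of ribosomal RNA and sequenced. The labels do not say whether the replicates came from separate cultures, so the spread between them may be technical. There is no comparison between conditions and no test of a difference. The study used expression levels in H9 to sort genes before it compared DNA breaks at their start and splice sites, and the levels of this network are described here for their own sake.

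MYC, MYCN and MYCL are transcription factors that drive growth and proliferation, and each binds DNA only as a dimer with MAX, mainly at the E-box, whose letters are CACGTG. The MXD proteins, MNT and MGA bind the same sites with the same partner and mostly repress, the MXD proteins and MNT through the SIN3 corepressor and MGA through a Polycomb complex named PRC1.6. In pluripotent stem cells MYC activity is associated with rapid division, and MYCN is known to share this role with MYC.

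Libraries held 10390984, 12024802 and 8655155 reads counted on genes in replicates 1, 2 and 3, of which the 10 members took 6033, 6618 and 4890, or between 0.0550% and 0.0581%. Levels are in TPM, that is, the reads per base of a gene's exons, scaled to the same sum in each library, so that genes of different length can be set beside each other. All 7 markers of pluripotent cells were in the high expression class, with sums of 6608, 6581 and 6446 TPM in the 3 replicates. LIN28A (2576 ± 64.7 TPM, SD, n = 3) and DNMT3B (1199.8 ± 11.01 TPM) were highest, and NANOG (275 ± 24.7 TPM) and SOX2 (397 ± 42.7 TPM) lowest. The 12 markers of differentiated cells summed to 63.2, 52.4 and 50.2 TPM, with 4 in the medium and 8 in the low class. MIXL1 (22.3 ± 5.66 TPM) and FOXA2 (7.54 ± 1.71 TPM) had the highest means, and TFAP2A (0.397 ± 0.137 TPM) and HAND1 (0.306 ± 0.274 TPM) had the lowest. FOXA2 was level with EOMES (6.74 ± 1.92 TPM) and KRT7 (6.70 ± 1.19 TPM). With canonical transcripts as gene length, described below, KRT7 (9.96 ± 1.80 TPM) was above FOXA2 (4.87 ± 1.10 TPM). HAND1 was at 0 in replicate 1, and every other marker had reads in each replicate. In bulk RNA, fewer cells that use a gene and less RNA per cell cannot be told apart.

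Among the MYC genes, MYCN stood highest, MYC was next and MYCL was lowest. MYCN (ENSG00000134323, GRCh38 chromosome 2, 15940550 to 15947007, plus strand) had 118, 115 and 115 TPM in replicates 1, 2 and 3, a mean of 116 ± 1.86 TPM (SD, n = 3). MYC (ENSG00000136997, chromosome 8, 127735434 to 127742951, plus strand) had 56.7, 51.4 and 50.6 TPM, a mean of 52.9 ± 3.30 TPM. MYCL (ENSG00000116990, chromosome 1, 39895428 to 39902256, minus strand) had 20.7, 20.2 and 23.7 TPM, a mean of 21.5 ± 1.89 TPM. The ranges of these 3 genes did not overlap, and their order was the same in every replicate.

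MYCN held 60.4%, 61.7% and 60.7% of the summed TPM of the MYC genes, a mean of 61.0 ± 0.662%, against 27.7 ± 1.12% for MYC and 11.3 ± 1.06% for MYCL. This lead was one of reads per length. Before division by length, MYC had 901, 950 and 686 reads and MYCN 848, 961 and 702, and their mean CPM, counts scaled by the library total alone, were 81.7 ± 4.38 and 80.9 ± 0.869, closer than the SD of MYC. The union of annotated exons is 6109 bp for MYC and 2755 bp for MYCN, while their canonical transcripts, the 1 that Ensembl selects for each gene, have 3721 and 2613 bp. With the latter as gene length, MYCN had 73.9 ± 1.03 TPM and MYC 52.4 ± 3.14 TPM, and the ratio of MYCN to MYC was 1.41 ± 0.0633 in place of 2.20 ± 0.0985. MYCN was above MYC in all 3 replicates on both scales.

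**Figure D1:**
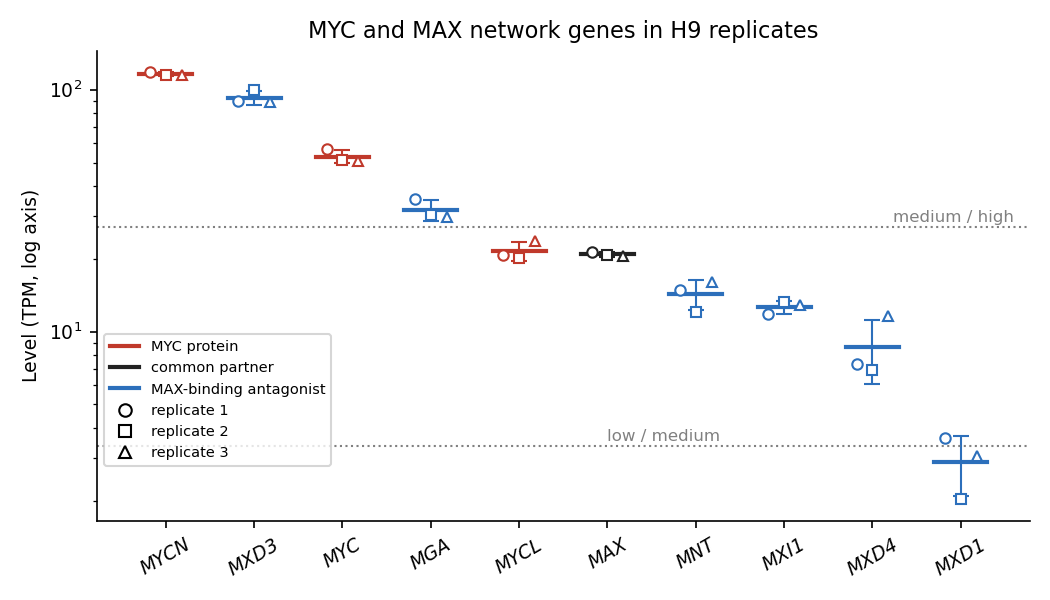
Level of each member in TPM (log axis), ordered by mean, with a horizontal line for the mean of the 3 H9 replicates, an error bar for the SD and a symbol for each replicate. Dotted lines mark the boundaries of the expression classes at 3.35 and 27.0 TPM. MYCN is highest at 116 TPM and MXD1 lowest at 2.90 TPM, and 4 members lie above the upper line.

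MAX, the partner with which the other members bind E-boxes, was not among the most abundant members. MAX (ENSG00000125952, chromosome 14, 65006174 to 65102695, minus strand) had 21.4, 20.8 and 20.5 TPM, a mean of 20.9 ± 0.4995 TPM, and varied little between replicates. MAX was level with MYCL, which was above it in 1 of 3 replicates only, and their means differed by 0.643 TPM, less than the SD of MYCL. The level of MAX was 0.0598, 0.0591 and 0.0582 times the summed level of its 9 partners, a mean of 0.0590 ± 0.000779. These are levels of RNA, and protein was not measured. MAX has 19 annotated transcripts, and their union of 6257 bp is 3.11 times as long as its canonical transcript of 2010 bp, against a median of 1.31 times over all protein-coding genes. With the canonical transcript, MAX had 39.2 ± 0.827 TPM and stood above MGA and MYCL in all 3 replicates.

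The antagonists ranged from MXD3, next to MYCN, to MXD1, the lowest member. MXD3 (ENSG00000213347, chromosome 5, 177301461 to 177312757, minus strand) encodes a MXD protein of dividing cells and had 89.8, 99.8 and 88.9 TPM, a mean of 92.8 ± 6.02 TPM. MGA (ENSG00000174197, chromosome 15, 41621134 to 41773081, plus strand), which also carries a T-box DNA-binding domain, had 35.4, 30.3 and 29.7 TPM, a mean of 31.8 ± 3.11 TPM. The value in replicate 1 was the highest for MGA, while for MXD3 it was that in replicate 2.

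MNT, MXI1 and MXD4 were lower and MXD1 was the lowest. MNT (ENSG00000070444, chromosome 17, 2384073 to 2401104, minus strand), an antagonist known from most tissues, had 14.9, 12.001 and 16.1 TPM, a mean of 14.3 ± 2.08 TPM. MXI1 (ENSG00000119950, chromosome 10, 110207605 to 110287365, plus strand) had 11.8, 13.2 and 12.9 TPM, a mean of 12.6 ± 0.753 TPM. MNT and MXI1 overlapped, since MNT was higher in 2 of 3 replicates and their means differed by 1.69 TPM, less than the SD of MNT.

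MXD4 (ENSG00000123933, chromosome 4, 2247432 to 2262109, minus strand) had 7.38, 6.97 and 11.6 TPM, a mean of 8.65 ± 2.56 TPM. MXD1 (ENSG00000059728, chromosome 2, 69897688 to 69942945, plus strand), a gene known for its rise when cells leave the cycle and differentiate, had 3.63, 2.03 and 3.05 TPM, a mean of 2.90 ± 0.810 TPM. MXD1 rested on 60, 39 and 43 reads, and its sum of 142 has an exact Poisson 95% interval of 119.6 to 167.4 reads, which covers counting error only. MXD1 was below MXD4 in all 3 replicates, by more than either SD.

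Summed, the 3 MYC genes had 196, 187 and 189 TPM and the 6 antagonists 163, 164 and 162 TPM, so that the ratio of the sums was 1.17 ± 0.0322. MXD3 made up 56.9 ± 3.31% of the antagonist sum and MGA 19.5 ± 1.93%, while MXD1 made up 1.78 ± 0.504%. The ratio depended on the length given to each gene, and it was 0.452 ± 0.0251 with canonical transcripts and 0.796 ± 0.0322 with the longest transcripts. It was above 1 in every replicate with the union of exons and below 1 in every replicate with either transcript length. Without MXD3, an alternative chosen after its values were seen, the ratio was 2.72 ± 0.161 with the union of exons and 2.04 ± 0.119 with canonical transcripts.

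**Figure D2:**
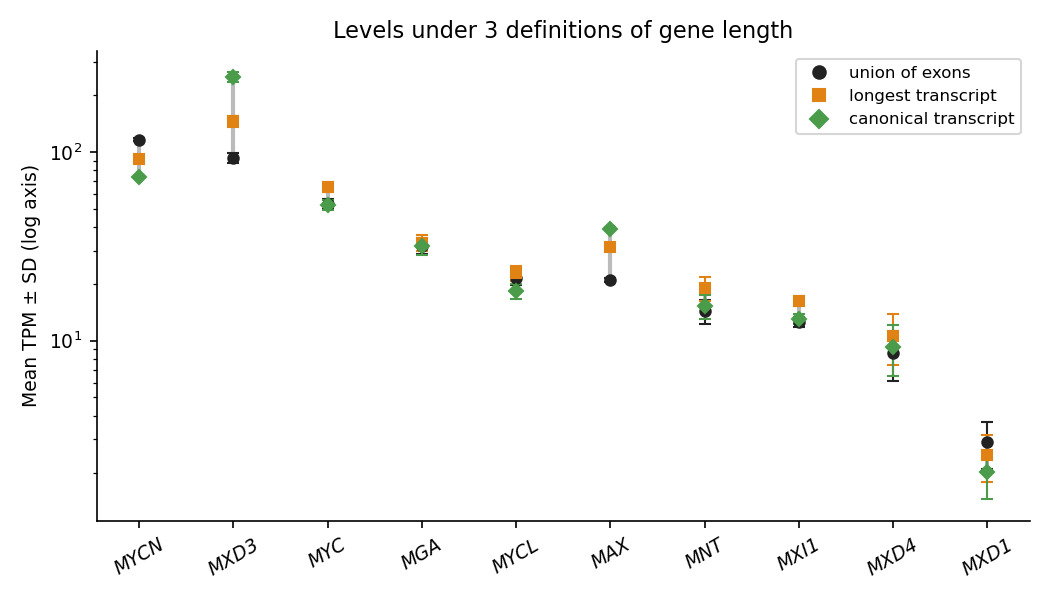
Mean TPM with SD over the 3 replicates (log axis) for each member, with 3 definitions of gene length. MXD3 spans from 92.8 to 249 TPM and MAX from 20.9 to 39.2 TPM, while MYC, MGA, MYCL, MNT, MXI1 and MXD4 keep closer levels.

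MXD3 moved most between definitions of length, since its 9 transcripts have a union of 4743 bp and its canonical transcript has 1067 bp. With the canonical transcript MXD3 had 240.4, 267.0 and 239.6 TPM, a mean of 249 ± 15.6 TPM, and with the longest transcript 145 ± 9.22 TPM. On both of these scales it was above MYCN in all 3 replicates, whereas MYCN was above MXD3 in all 3 replicates with the union of exons. Which of the pair was higher thus cannot be read from these counts. The order MYCN, MYC, MYCL among the MYC genes and the order MXI1, MXD4, MXD1 among the antagonists were the same with each of the 3 lengths.

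The counting of overlapping genes also bears on MXD3. Of its exon length, 43.7% is shared with exons of other genes, namely 1148 bp with PRELID1 on the opposite strand and 926 bp with RAB24 on the same strand. PRELID1 had 235 ± 10.1 TPM and 1854 reads per kb over the 3 replicates, against 733 for MXD3. At that rate the 1148 bp would hold 2129 reads, which is 61.2% of the 3477 counted on MXD3. Whether the counting used strand is not given in the sources used here, and without it reads of MXD3 and PRELID1 over these bases cannot be told apart. RAB24 had 8, 13 and 20 reads and 2.64 ± 1.52 TPM. An alternative chosen after seeing the data left the shared exon length out of the members but kept all their reads. MXD3 then had 165 TPM and stood above MYCN at 120.4 TPM. Since the reads were kept, a shorter length could only raise a level, and most for MXD3. This setting therefore does not show which of the pair was higher.

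Of the other members, MAX shared 16.1% and MNT 12.2% of their exon length, and the rest between 1.16% and 4.55%. MAX lies over exons of FNTB on the opposite strand, and at the rate of FNTB the 822 shared bases would hold 6.35% of the reads on MAX. For MNT, the antisense gene ENSG00000262456 lies wholly within its exons and had 86, 98 and 86 reads beside the 337, 316 and 310 of MNT. MXD1 shares 237 bp with SNRNP27 on the same strand, which had 52.4 ± 2.32 TPM, and at its rate these bases would hold 97.1 reads, or 68.4% of the 142 on MXD1. For MYC, MYCN, MYCL, MXI1 and MGA the same figure was at most 1.63% for any overlapping gene. Among the overlapping genes of unknown function, ENSG00000259118 over MAX had 55, 52 and 53 reads, ENSG00000260814 over MGA had 10, 11 and 8, and ENSG00000228417 over MXI1 had 2 in replicate 2 alone. No read was counted on ENSG00000260926 over MGA or on CHURC1-FNTB over MAX, where a count of 0 allows up to 3. That limit covers counting error only, and reads left out or assigned to another gene are not covered. MIR4800 within MXD4 was not analysed here.

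The classes used by the study were applied to these levels, with genes under 0.01 TPM taken as nonexpressed and the remaining genes divided into 3 quantiles. The classes were limited here to genes that code for proteins. MYCN, MXD3, MYC and MGA were high, MYCL, MAX, MNT, MXI1 and MXD4 medium and MXD1 low. That is 4 of 10 members in the high class, beside 28.8% of all protein-coding genes. It was 9 of 10 when noncoding genes were classified too, but the class boundaries then differ and the 28.8% does not apply. The share of genes in the high class under that setting is not given here, so the 9 cannot be read as a trait of the members. The median of the members was 21.2 TPM, beside 7.10 TPM over all protein-coding genes. MYCN was above 93.0% of protein-coding genes, MXD3 above 91.1%, MYC above 83.4%, MGA above 74.2%, MAX above 66.2% and MXD1 above 41.1%. Each of the 10 members had the same class in all 3 replicates taken alone. The nearest to a boundary were MGA, 31.8 TPM against 27.0, and MXD1, 2.90 TPM against 3.35. With the canonical or the longest transcript as gene length MAX was high as well.

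**Figure D3:**
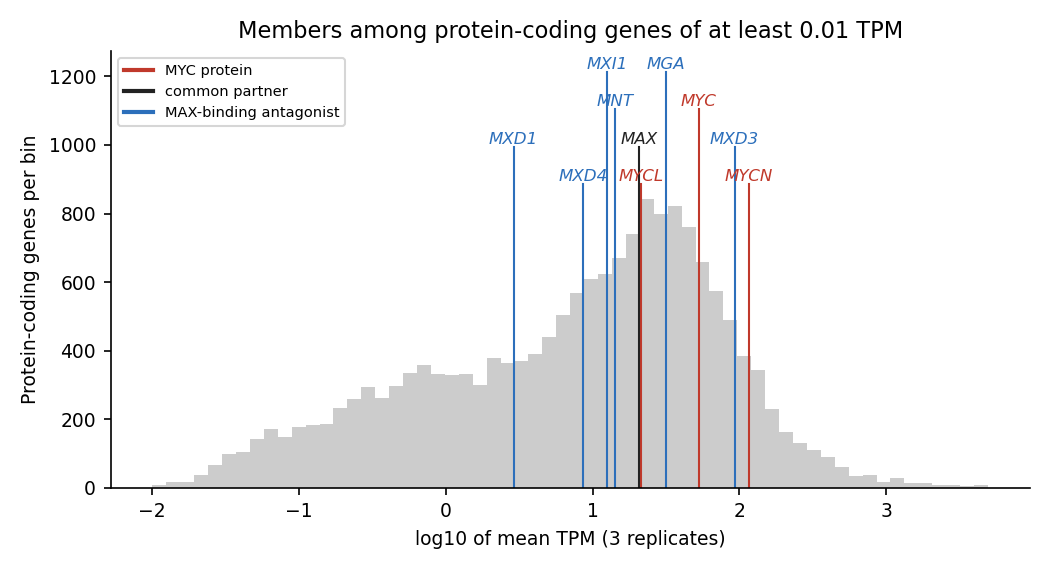
Number of protein-coding genes per bin of log10 mean TPM (gray), with a vertical line at the mean of each member. MYCN and MXD3 lie in the upper tail, MAX and MYCL near the peak and MXD1 below it.

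The genes nearest in level were found by Euclidean distance in log2(TPM + 0.01) over the 3 replicates, for the highest member of each role. For MYCN they were MTCH2 (distance 0.0225, 116 ± 3.16 TPM), ZFR (0.0284, 117 ± 3.19 TPM) and PXDN (0.0289, 117 ± 1.86 TPM). For MAX they were SYNJ2 (0.0114, 20.8 ± 0.463 TPM), CEP95 (0.0222, 21.0 ± 0.421 TPM) and NRIP1 (0.0271, 21.0 ± 0.597 TPM). For MXD3 they were SV2A (0.0278, 91.8 ± 5.71 TPM), COX6C (0.0306, 92.3 ± 6.25 TPM) and INSIG1 (0.0518, 91.0 ± 5.23 TPM). With 1 condition and 3 libraries, this likeness is one of level.

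The members differed in how closely the replicates matched. MYCN and MAX were the steadiest, with coefficients of variation of 1.61% and 2.39%, under the 3.49% and 5.46% that sampling of reads alone gives at their counts. MXD4 and MXD1 were the least steady, at 29.6% and 27.9%, against 8.19% and 14.8% from sampling. A chi-square statistic of each gene's counts against the library totals was compared with its 95% point for 2 degrees of freedom, as a description of these 3 libraries. It was exceeded by MXD4, MGA, MNT, MXD3 and MXD1, which is 5 of 10 members, and not by MYC, MYCN, MYCL, MAX and MXI1. It was exceeded by 23.5% of all 16778 genes of at least 30 reads, and by 23.9% of the 11025 genes with as many reads as the members. All 5 members past the point were antagonists, as are most of the 10 members, and MXI1 was the only antagonist not past it. This was not so in every setting, since MYC was past the point too after the correction for exon GC content given below.

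The libraries that set these differences were not the same for each gene. MXD4 was high in replicate 3, at 20.5 CPM against 12.7 and 12.1 in replicates 1 and 2, or 0.72 above the mean of the others on the log2 scale. MGA was high in replicate 1, at 178 CPM against 153 and 153. MNT and MXD1 were low in replicate 2, at 26.3 CPM against 32.4 and 35.8 for MNT and at 3.24 CPM against 5.77 and 4.97 for MXD1. MXD3 was high in replicate 2, at 119 CPM against 107 and 108.

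**Figure D4:**
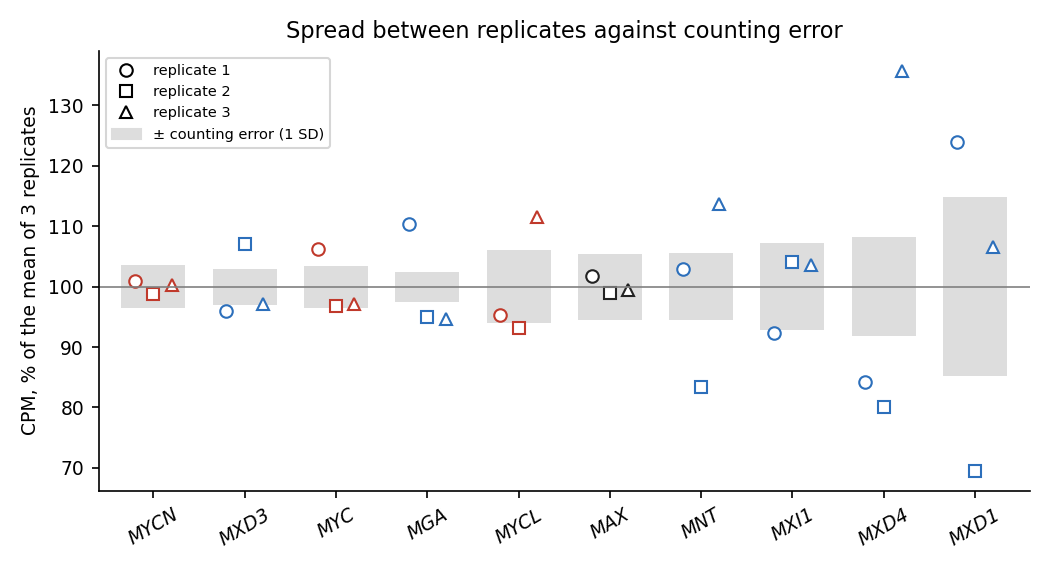
CPM of each member in each replicate as a percent of its mean over the 3 replicates, with members in order of mean TPM. Gray bands show counting error (1 SD) around 100%. MYCN and MAX lie within their bands in all 3 replicates, and MXD4 in replicate 3 and MXD1 in replicate 2 lie farthest from 100%.

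A pair of libraries has 1 degree of freedom, so the 95% point was lower for pairs than for all 3 replicates. Without replicate 2 the count of members past the point for pairs was 2, MXD4 and MGA. Without replicate 1 the count was 4, with MYCL joining MXD3, MXD4 and MNT. Without replicate 3 the count was 5, with MYC in the place of MXD4. Of genes with as many reads as the members, 22.5%, 21.3% and 10.5% were past the point in these pairs, in the same order. Across the 9946 genes with at least 100 reads in every replicate, the log2 ratio of replicate 3 to the others had a Spearman's rho of 0.408 with exon GC content, a description across genes that share the same libraries. Exon GC content was 60.1% for MXD4, 59.7% for MNT and 58.4% for MXD3 and 42.4% for MGA. After a correction for it in 20 bins of genes, the statistic per degree of freedom went from 14.1 to 7.92 for MXD4 and from 7.91 to 3.98 for MNT, from 4.56 to 10.01 for MXD3 and from 13.2 to 13.5 for MGA. With all 3 replicates and 2 degrees of freedom, MYC was then past the point as well, which made 6 of 10 members. After the same correction 18.7% of genes with as many reads as the members were past it, beside 23.9% before.

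The promoters were searched for the E-box, the site that dimers of this network bind. The letters CACGTG read the same on both strands, and the windows ran from 250 bases before to 50 bases after each RefSeq start (GRCh38.p14). Windows of 9 members were searched, 14 in all. MYC was left out of the search, so its promoter is not described here. An E-box lay in those of MXD4 and MNT, and none in those of MYCN, MYCL, MAX, MXD1, MXI1, MXD3 and MGA. The motif was present in 7.26% of all windows of this length, in at least 1 window of 10.97% of protein-coding genes and in 13.8% of those in the high class. Both sites are shown 5′ to 3′ on the strand of the gene, with the E-box in capitals and 12 bases on either side. That of MXD4 (chr4:2262330-2262359, minus strand) begins at position -238 from the start, and that of MNT (chr17:2401236-2401265, minus strand) at position -193, and no gene of GENCODE release 44 covers either one.
MXD4: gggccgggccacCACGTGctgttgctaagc
MNT: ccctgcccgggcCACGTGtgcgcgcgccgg
These 2 genes were the antagonists with 8.65 ± 2.56 and 14.3 ± 2.08 TPM, both in the medium class. A match of letters is a description of the window, and binding was not measured here.

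The parallel branch of the network, in which MLX takes the place of MAX, was also expressed. MLX had 54.3 ± 2.91 TPM and its glucose-sensing partner MLXIP 35.2 ± 2.25 TPM, both in the high class, while MLXIPL, the partner known from liver and fat, had 3.31 ± 0.727 TPM and was low. The mean of MLX was above that of MAX with the union of exons and also with canonical transcripts (59.1 ± 2.94 against 39.2 ± 0.827 TPM). However, 18.2% of the exon length of MLX is shared with PSMC3IP on the opposite strand.

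Partners through which the members act were mostly high. Of 13 cofactors and regulators of MYC turnover, 11 were high and 2 medium, with a median of 48.3 TPM, beside 28.8% of all protein-coding genes in the high class. This list and those below were chosen with earlier results of these data known, so such counts cannot be read as a trait of the network. With the union of exons the ubiquitin ligase HUWE1 (151 ± 16.5 TPM) and the kinase AURKA (148 ± 9.78 TPM), which is known to stabilize MYCN, had the highest means. With canonical transcripts the ATPases RUVBL1 (168 ± 8.67 TPM) and RUVBL2 (163 ± 3.39 TPM) were above both. FBXW7, the ubiquitin ligase subunit that recognizes phosphorylated MYC and MYCN, was lowest at 12.7 ± 1.22 TPM, followed by ZBTB17, the partner with which MYC represses genes, at 18.1 ± 3.21 TPM.

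All 8 genes of the SIN3 corepressor, which MXD proteins and MNT recruit, were high, with a median of 85.5 TPM. Of all protein-coding genes, 28.8% were high. With the union of exons RBBP4 (197 ± 3.63 TPM) and SAP18 (164 ± 6.07 TPM) were highest, whereas RBBP7 had the highest mean with canonical transcripts (157 ± 6.90 TPM). However, 22.8% of the exon length of RBBP4 is shared with SYNC on the opposite strand. SAP30 (37.0 ± 1.31 TPM) and SIN3B (38.1 ± 1.38 TPM) were lowest, each above the MXD1, MXI1, MXD4 and MNT levels given before. Of the 9 other subunits of PRC1.6, the complex of MGA, 7 were high, 1 medium and 1 low, with a median of 50.6 TPM. CBX3 (212 ± 7.98 TPM) and TFDP1 (163 ± 8.19 TPM) were highest, and YAF2 (1.52 ± 0.389 TPM) and E2F6 (16.1 ± 0.798 TPM), a repressor that binds DNA with TFDP1, lowest.

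**Figure D5:**
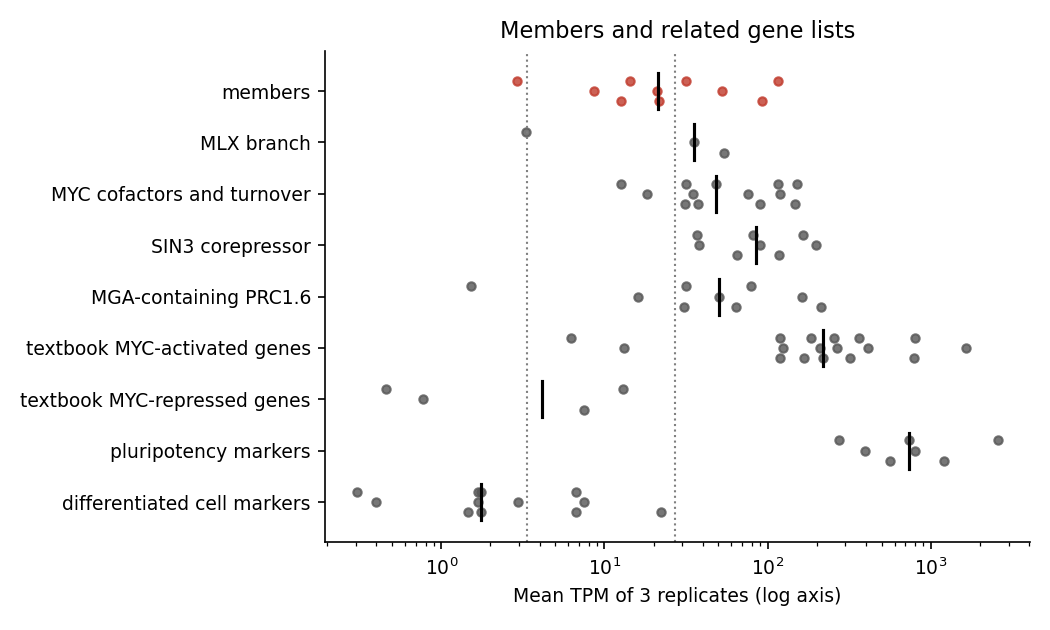
Mean TPM over the 3 replicates (log axis) of each gene on the lists, with members in red, a black bar for the median of each list and dotted lines at the class boundaries of 3.35 and 27.0 TPM. Medians run from 1.74 TPM for markers of differentiated cells to 739 TPM for pluripotency markers, with the members at 21.2 TPM.

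Genes that textbooks list as targets of MYC were read as levels, since no sample has MYC removed. Of 17 genes listed as activated, 15 were high and 2 medium, with a median of 217 TPM, beside 28.8% of all protein-coding genes in the high class. With the union of exons the chromatin protein gene PTMA was highest (1643 ± 72.5 TPM), followed by the nucleolar genes NPM1 (796 ± 42.8 TPM) and NCL (791 ± 97.0 TPM), which were level. With canonical transcripts NPM1 (3025 ± 151 TPM) was above PTMA (2759 ± 112 TPM). Since PTMA and NPM1 have pseudogene copies, the division of reads among copies makes their levels uncertain. TERT, the catalytic subunit of telomerase, was lowest at 6.24 ± 0.815 TPM, followed by the helicase EIF4A1 at 13.2 ± 1.16 TPM. EIF4A1 shares 42.1% of its exon length with ENSG00000264772 on the same strand, and its level is uncertain. Of 4 genes listed as repressed, 2 were medium and 2 low. The cell cycle inhibitors CDKN1A and CDKN2B had 7.49 ± 1.35 and 0.456 ± 0.414 TPM, and the stress and differentiation genes GADD45A and NDRG1 13.1 ± 1.04 and 0.774 ± 0.110 TPM. CDKN2B rested on 4, 1 and 8 reads. The lists are short, the level of a gene has many determinants, and the part of MYC in these levels was not tested.

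Long noncoding RNA genes lie beside the MYC genes, and they were given no expression class. MYCNOS, which overlaps MYCN on the opposite strand by 98 bp, had 72, 80 and 76 reads and 5.69 ± 0.812 TPM, and per kb it had 4.84% of the reads of MYCN. PVT1, next to MYC, had 130, 170 and 97 reads and 1.96 ± 0.245 TPM, or 12.3 ± 1.499 TPM with its canonical transcript, on which scale it was above MYCNOS (5.52 ± 0.811 TPM). CASC11 had 1 read in replicate 1 and none in the others, and MYCNUT had none in any replicate, where a count of 0 allows up to 3. That limit covers counting error only, and 64.0% of the exon length of MYCNUT is shared with MYCNOS, so reads assigned elsewhere are not covered. MYCL-AS1, which shares 28.8% of its exon length with MYCL on the opposite strand, had 12, 22 and 13 reads and 7.53 ± 1.70 TPM.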

How the data were processed

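Per the labels and the study's methods, total RNA of 3 H9 replicates was depleted of ribosomal RNA, and the submitters' processing notes name Trim Galore 0.4.4, TopHat2 2.1.1 and Cufflinks 2.2.1 and the GRCh38 build. The files deposited by the authors hold raw counts, whole numbers of reads per Ensembl gene, with no row of totals or unassigned reads. For the counting, the tool, annotation and strand setting are not given in the sources used. Of 58051 identifiers, 56948 were matched to GENCODE 44 on GRCh38, which also gave the symbols.

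Counts were divided by exon union length and scaled per library to TPM. Neighbors in the order of means were said to differ where the order was the same in all 3 replicates and the difference exceeded the larger SD. Besides the members, the 2 highest and 2 lowest genes of each list (all of lists of 5 or fewer), genes whose exons overlap a member, and the 3 genes nearest in level were named, and any other gene was chosen after its values were seen. CCAT1 was listed but not matched and is not analysed here. The members and lists were chosen with earlier results of these data known.

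The spread statistic was tested on Poisson counts simulated for all genes at the real depths. It passed the 95% point in 5.14% of 16578 unchanged genes, a share that follows from drawing Poisson counts. It also passed in 98% of 100 genes raised 1.5-fold in replicate 3. The raised genes were drawn from those with at least 300 reads, so the 98% does not apply to MXD1 with its 142 reads. Other gene lengths, CPM, scaling by TMM or DESeq2 factors, filters, thinning and leaving out each replicate were tried. Scaling factors came from edgeR 4.0.16 and DESeq2 1.42.0 in R 4.3.3, and the rest was computed in Python 3.11.15 with scipy 1.17.1, pandas 2.3.3, numpy 2.4.6 and matplotlib 3.10.9.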

Additional observations from a re-analysis of the deposited data

How the results depend on the processing

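Length decided most values. The MYCN share of 61.0% was 51.1% with the longest and also with the canonical transcripts and 42.7% with CPM. The ratio of the MYC genes to the antagonists, 1.17, was 0.796, 0.452 and 0.553 in that order, and that of MAX to its partners, 0.0590, was 0.0766, 0.0844 and 0.0621. Thinning to 10% of the reads, the median of 11 draws, moved only the last of these, to 0.0613. In alternatives chosen after seeing the data, leaving out exon length shared with other genes gave 0.827 and 0.0570, and leaving out MXD3 2.72 and 0.0801. The number of members in the high class, 4, was 9 when noncoding genes were classified too, and between 3 and 5 otherwise. The 9 has no share of all genes beside it and rests on other class boundaries. The number of members varying beyond counting error, 5, lay between 2 and 5 without 1 replicate and between 4 and 6 otherwise. TMM factors, DESeq2 size factors and the filter at 10 reads moved none of the 10 levels by more than its SD. The longest transcript moved 6 (5 higher, 1 lower), the canonical transcript 5 (2 higher, 3 lower), mitochondrial genes left out 2 (both higher), thinning 2 (1 higher, 1 lower) and shared exon length left out 3 (all higher). With shared exon length left out the reads on it were kept, so a level could only rise. CPM, a different unit, moved all 10 (9 higher, 1 lower). Leave-one-out means and the median of the replicates stay within the SD by construction. Depth limits MXD1 most, at 142 reads. No paired analysis was possible because all 3 samples belong to the same group.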
